A study of Mus musculus with 4 samples.

Results

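The 7 genes described here encode mouse enzymes that trim peptides at proline or at the starting methionine: the X-prolyl aminopeptidases Xpnpep1, Xpnpep2 and Xpnpep3, the prolidase Pepd, and the methionine aminopeptidases Metap1, Metap2 and Metap1d. They were taken by name, and all 7 were found among the 51826 gene identifiers of the count table. The family was chosen on the fold change of Xpnpep3 between GDF10 and vehicle, which an earlier fit of these libraries had shown, so the fold changes of its members are given as a description and support nothing. RNA was sequenced from C2C12, an established mouse myoblast line that grows as dividing precursors and can form myotubes. Of 4 libraries, 2 came from cells given vehicle and 2 from cells given recombinant GDF10, a growth factor related to BMP3, in both cases for 6 h in growth medium. The replicates are described as biological, without word on separate cultures, so p-values and errors below measure the spread between these libraries, which may be partly technical. The dose is not given in the sources used here.

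An X-prolyl aminopeptidase removes the first residue of a peptide whose second residue is proline, a bond that most other peptidases leave intact. Xpnpep1 is the soluble cytosolic form, Xpnpep2 is anchored to the cell surface and can inactivate bradykinin, and Xpnpep3 acts mainly in mitochondria, where it trims proteins after their presequence has been cut off. Prolidase splits dipeptides that end in proline or hydroxyproline and so serves the last step of collagen breakdown. Methionine aminopeptidases remove the initiator methionine from new proteins, with Metap1 and Metap2 working at cytosolic ribosomes and Metap1d in mitochondria. Metap2 is the target of fumagillin. All of these enzymes are metalloenzymes built on a related fold.

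Total counts ran from 29641165 to 35597310 per library, and 15467 genes passed the filter on low counts and were tested, all 7 members among them. With edgeR's quasi-likelihood test 25 genes, or 0.162%, had a Benjamini-Hochberg adjusted p under 0.05. Of these, 13 were higher with GDF10 (0.084% of genes tested) and 12 lower (0.0776%). The cells are labelled as muscle stem cells. In CPM, counts scaled to a common library size, the myogenic factor Myod1 lay between 53.6 and 57.5 and desmin, Des, between 996 and 1042, while Pax7, a defining marker of muscle stem cells, had 0 counts in every library, as 1 of 9 markers in the myoblast list. Myf5 had 25.1 and 26.9 CPM with vehicle and 22.7 and 23.2 with GDF10, and myogenin, Myog, a factor of differentiation, had 23.9 and 23.8 against 35.2 and 28.9 (log2 fold change 0.43, unadjusted p = 0.00929, adjusted p = 0.748, edgeR). The myoblast list summed to 2170.2 and 2166.2 CPM with vehicle and 2233 and 2242 with GDF10. Summed markers of mature fibres came to 144 and 162 CPM with vehicle and 174 and 186 with GDF10, most of it Acta1 (unadjusted p = 0.0153, adjusted p = 0.815, edgeR). Summed markers of endothelium and epithelium came to 4.03 and 5.17 against 6.21 and 6.71, most of it Krt8 (unadjusted p = 0.0314, adjusted p = 0.825, edgeR). In these 3 lists the GDF10 libraries were the higher ones, where the groups did not overlap for 38.2% of all genes tested. Log2 fold changes were positive for 7 of 8 tested myoblast genes, 5 of 6 fibre genes and 1 of 2 endothelial and epithelial genes. Myh1 of the fibre list (−0.28) and Pecam1 of the endothelial and epithelial list (−0.27) were lower. The part of these differences in the values of Xpnpep3 was not tested. The sums of the other lists overlapped between groups. The fibroblast list, at 7102 to 7949 CPM, was mostly the collagen genes Col1a1, Col1a2 and Col3a1. Pdgfra had 58.7 to 63.0 CPM and Dcn 26.3 to 40.3, while Lum had 0 to 2 counts per library and Thy1 0 or 1. The adipocyte list, at 105.0 to 118 CPM, was mostly Lpl. Hba-a1 was the largest part of the immune and blood list, at 7.84 to 9.54 CPM. Epcam, Adgre1, Cd3e, Hbb-bs and Adipoq had 0 counts in every library, and no marker in any of these lists passed the adjusted threshold. The extraction text speaks of longissimus dorsi, at odds with the cell line given elsewhere.

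The members covered a wide range of levels. Compared per kb of annotated exon, Metap2 had the highest level, with 25.4 to 28.3 CPM per kb over the 4 libraries (mean 26.3). Xpnpep1 followed with 20.2 ± 0.810 CPM per kb and Pepd with 20.2 ± 1.02 (mean ± SD over the 4 libraries), and Metap1 lay at 12.2 to 13.1. The ranges of Xpnpep1 and Pepd overlapped, and their order was not resolved per kb of exon. Metap2 stood apart above them and Metap1 below them, without overlap.

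The genes of mitochondrial enzymes were lower on the same scale. Metap1d lay between 2.17 and 2.88 CPM per kb. Xpnpep3 lay between 1.56 and 5.50, a range that enclosed that of Metap1d. Xpnpep2 was the lowest, at 0.0831 to 0.206 CPM per kb. The median gene tested had 4.99 CPM per kb. By mean level over the 4 libraries, Metap2 was above 85.7% of the genes tested, Xpnpep1 above 81.4%, Pepd above 81.4%, Metap1 above 71.8%, Xpnpep3 above 42.3%, Metap1d above 35.7% and Xpnpep2 above 4.51%. Dividing by coding length instead of exon length exchanged the places of Metap1 (75.3 CPM per coding kb) and Pepd (42.1) and left the other ranks as they were. Xpnpep1 then lay at 88.5 to 97.1 CPM per coding kb and Pepd at 40.4 to 44.9, without overlap, so their near equality depends on the length used.

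**Figure D1:**
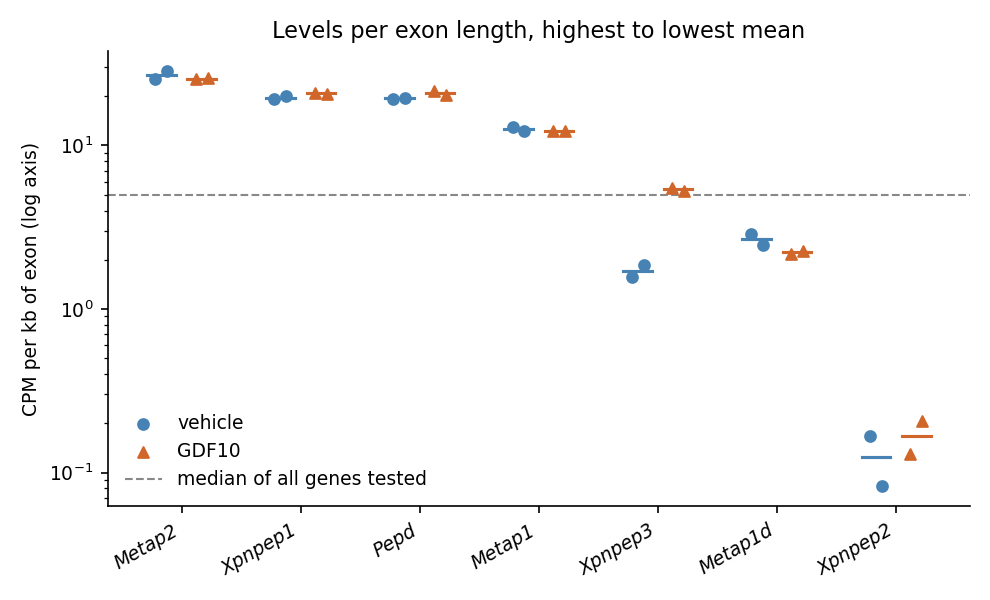
Levels of the 7 genes in CPM per kb of exon (log axis), ordered by the mean over 4 libraries; circles are vehicle libraries, triangles GDF10 libraries, short lines group means of 2 libraries, and the dashed line is the median of all genes tested, 4.99. Only Xpnpep3 has its groups on either side of that line, with vehicle at 1.56 and 1.87 and GDF10 at 5.50 and 5.26.

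Xpnpep3, the mitochondrial X-prolyl aminopeptidase gene, stood higher with GDF10. Vehicle gave 424 and 420 counts, GDF10 gave 1253 and 1393. These are 11.9 and 14.2 CPM with vehicle and 41.8 and 40.0 CPM with GDF10. Both GDF10 libraries were far above both vehicle libraries, and the libraries of 1 group differed by at most 1.20-fold. The group means were 13.0 ± 1.64 and 40.9 ± 1.305 CPM (mean ± SD, n = 2 per group), a 3.14-fold difference with a 95% interval of 2.58 to 3.83.

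On the log2 scale that fold change is 1.65 with a standard error of 0.12. The adjusted p (edgeR) was 0.00652, the fifth lowest over all genes. It belongs to the contrast on which the family was chosen and is not evidence of its own. It was the single member under the adjusted threshold, 1 of 7, where 0.162% of all genes were, and nothing is read from that count. Counting error at these depths is small, with a coefficient of variation of 4.88% in the library with fewest Xpnpep3 counts. In bulk RNA, fewer cells that express a gene and less RNA per cell cannot be told apart.

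**Figure D2:**
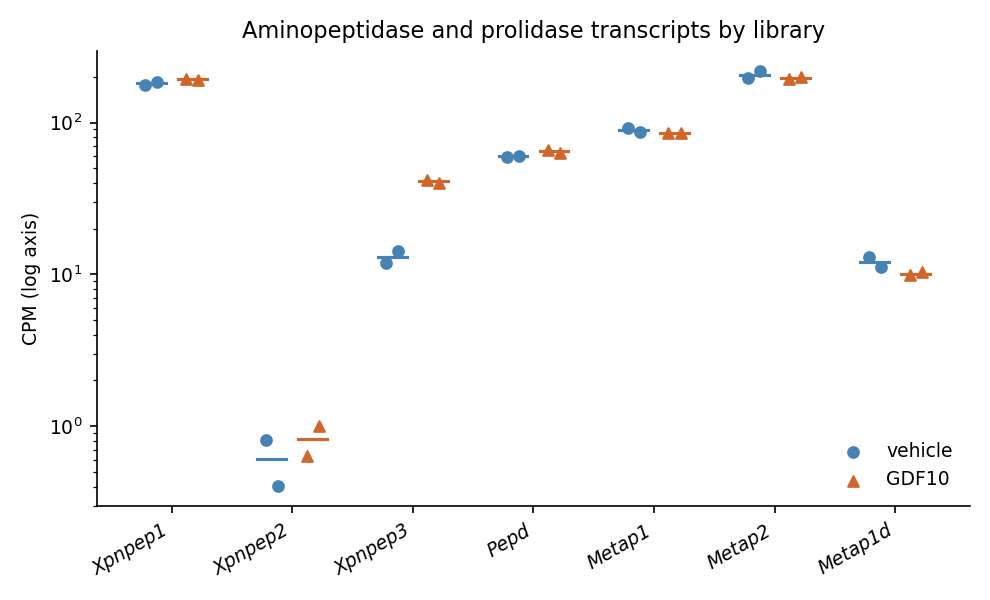
CPM of each gene in each library on a log axis, with circles for vehicle, triangles for GDF10 and short lines for group means of 2 libraries. Xpnpep3 goes from a mean of 13.0 to 40.9 CPM, while the group means of Xpnpep1, Pepd, Metap1 and Metap2 lie close together.

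Xpnpep3 lies on the plus strand of mm10 chromosome 15, from 81400138 to 81457482, and GENCODE M21 gives it 7 transcripts, 2 of them protein-coding. The table counts reads per gene, so the transcripts cannot be told apart. No other annotated gene had a transcript stretch of at least 100 bases that matched a coding transcript of Xpnpep3 at 95% identity. Gm17025, an antisense gene, shares 108 exon bases with it and had 0, 0, 0 and 1 counts in vehicle 1, vehicle 2, GDF10 1 and GDF10 2. Dnajb7, a DnaJ chaperone gene on the opposite strand that lies inside the Xpnpep3 span without sharing an exon base, had 0, 2, 0 and 0. The genes that overlap Xpnpep3 thus held almost none of the reads of the locus in either group.

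St13, which encodes an Hsp70-interacting co-chaperone, starts 60 bases from the Xpnpep3 start and runs the other way. The levels of St13 were 408 and 391 CPM with vehicle and 388 and 382 CPM with GDF10, a log2 fold change of −0.05 with a 95% interval of −0.21 to 0.10 (adjusted p = 0.899, edgeR). As a fold, that interval runs from 0.863 to 1.08, beside the 3.14-fold difference of Xpnpep3. Rbx1, the RING subunit of cullin ubiquitin ligases, lies 8813 bases beyond the other end. It stood at 162 and 158 CPM with vehicle and 190 and 164 CPM with GDF10 (log2 fold change 0.14, 95% interval −0.07 to 0.35, adjusted p = 0.845, edgeR). Neither flanking gene passed the test.

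**Figure D3:**
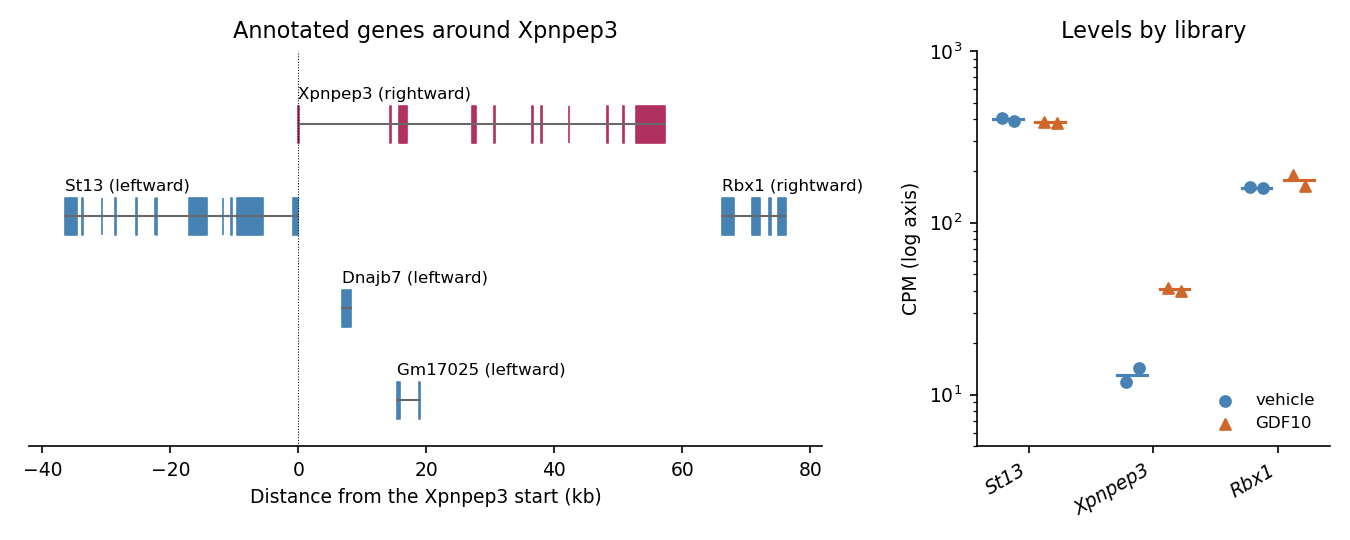
Left, annotated genes around the Xpnpep3 start, drawn to scale in kb with exons as boxes and the direction of transcription in words. Right, CPM (log axis) of Xpnpep3 and its flanking protein-coding genes in vehicle (circles) and GDF10 (triangles) libraries, with lines at group means; St13 lies between 382 and 408 and Rbx1 between 158 and 190 in all 4 libraries.

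The 60 bases between the annotated starts of Xpnpep3 and St13 are shown because they are all that separates Xpnpep3 from St13, whose interval includes no change, and bases before the start of Metap1d because it is the other mitochondrial member. Sequences are from RefSeq on GRCm38.p6, the assembly of mm10, on the plus strand, 5′ to 3′. Both end at the GENCODE start, which for Metap1d lies 62 bases before the RefSeq start. Capitals mark GTCT on either strand, the 4 bases of the SMAD box, which has 0 matches in the first sequence.
Xpnpep3, chr15:81400078-81400137: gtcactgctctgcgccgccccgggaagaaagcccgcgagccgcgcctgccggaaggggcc
Metap1d, chr2:71453088-71453275: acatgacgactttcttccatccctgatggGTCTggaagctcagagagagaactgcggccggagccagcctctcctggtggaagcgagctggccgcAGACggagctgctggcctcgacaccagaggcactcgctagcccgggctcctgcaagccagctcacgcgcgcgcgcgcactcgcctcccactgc

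The RefSeq table held windows of 300 bases, most of each before the RefSeq start, for all 7 genes. The Metap2 window, 93891153 to 93891452, lies inside the GENCODE span of that gene, which starts at 93897093 on the minus strand. Both Xpnpep1 windows, between 53038521 and 53038904, likewise lie inside its span, which starts at 53040214. Matches and CpG pairs given for Metap2 and Xpnpep1 therefore do not describe the bases before their GENCODE starts. The Metap1 window, 138489333 to 138489632, holds the GENCODE start of Metap1, at 138489515 on the minus strand. Its matches and CpG pairs describe bases before that start only in part. The Xpnpep3 window had 3 matches to GTCT and the Metap1d window 2, and every other member had 1 or 2. All 3 matches of Xpnpep3 lie in annotated exon bases of St13, on the far side of the printed stretch. Of 32851 windows of that length in the table, 88.0% held this motif on either strand, so its presence sets no member apart. The longer CAGAC, whose last 4 bases are the complement of GTCT and so overlap such a match, occurred 1 time each for Xpnpep3, Metap2, Xpnpep2 and in 1 of the 2 windows of Xpnpep1, 2 times for Metap1d, and in 49.6% of all windows. GGCGCC, bound by SMADs downstream of BMP ligands, occurred 1 time for Metap1d, for Metap1 and in each window of Xpnpep1, had 0 matches for Xpnpep3, Pepd, Metap2 and Xpnpep2, and was in 11.9% of all windows. CACGTG, an E-box, occurred in Metap1d and Pepd and in 7.15% of all windows. CCAAT occurred in Metap2, Xpnpep1 and Xpnpep2 and in 37.4%, and TATAAA in no member and in 13.6%. The windows held 39 CpG pairs for Metap1, 27 for Metap1d, 24 for Xpnpep3, 19 and 24 for Xpnpep1, 12 for Pepd and 0 for Metap2 and Xpnpep2, where the median window held 7. A match is a description of letters and not a bound site.

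The other X-prolyl aminopeptidase genes differed much less between the groups. Xpnpep1, the cytosolic form (chromosome 19, 52931926 to 53040214, minus strand), had 177 and 185 CPM with vehicle and 194 and 191 CPM with GDF10. Both GDF10 libraries were above both vehicle libraries, by a small margin. The fold was 1.06, with a 95% interval of 0.949 to 1.19. Short stretches of some annotated Xpnpep1 transcripts match other genes at 95% identity or more, so a part of its reads is uncertain.

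Xpnpep2, the cell-surface form (chromosome X, 48108725 to 48136981, plus strand), was barely detected, at 29 and 12 counts (vehicle) and 19 and 35 counts (GDF10). These are 0.812, 0.405, 0.634 and 1.004 CPM, and the groups overlapped. The exact 95% Poisson interval, which covers counting error only, ran from 0.209 to 0.708 CPM in vehicle 2 and from 0.699 to 1.40 in GDF10 2. Its log2 fold change of 0.42 had a 95% interval of −0.72 to 1.56, and single libraries decided it: 1.01 without vehicle replicate 1 and 0.02 without vehicle replicate 2, then 0.70 and 0.04 with the first or the second GDF10 library left out. The interval, 0.606-fold to 2.94-fold, covers both a lower and a higher level with GDF10, so no difference was detectable at this depth.

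Among the 3 X-prolyl aminopeptidase genes, Xpnpep3 made up 7.48% and 8.51% of the summed CPM per kb with vehicle, and 20.7% and 20.1% with GDF10. Xpnpep1 held nearly all of the rest in both groups.

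Pepd, the prolidase gene (chromosome 7, 34912379 to 35044708, plus strand), had 59.7 and 59.9 CPM with vehicle and 66.4 and 62.9 CPM with GDF10. The GDF10 libraries were again the higher ones, and they differed from each other by 1.05-fold. The fold was 1.08 with a 95% interval of 0.944 to 1.24.

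The methionine aminopeptidase genes had fold changes near 1 or slightly below it. Metap1 (chromosome 3, 138458956 to 138489515, minus strand) had 91.4 and 86.2 CPM with vehicle and 85.8 and 85.5 CPM with GDF10. The higher GDF10 library was only just under the lower vehicle library, and the fold was 0.965 with a 95% interval of 0.850 to 1.095. Metap2 (chromosome 10, 93858489 to 93897093, minus strand) had 195 and 217 CPM with vehicle and 195 and 198 CPM with GDF10. Here the groups overlapped, and the fold was 0.953 with a 95% interval of 0.839 to 1.08. A processed pseudogene, Gm9333, matches Metap2 over 782 bases at 95.9% identity and had 120, 82, 103 and 132 counts in vehicle 1, vehicle 2, GDF10 1 and GDF10 2, so a small share of Metap2 reads could have been placed there.

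Of the summed CPM per kb of the 3 methionine aminopeptidase genes, Metap2 made up 61.6% and 65.7% with vehicle and 63.8% and 64.1% with GDF10. The GDF10 values lay between the vehicle values.

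Metap1d, the mitochondrial methionine aminopeptidase gene (chromosome 2, 71453276 to 71525194, plus strand), had 13.0 and 11.1 CPM with vehicle and 9.84 and 10.3 CPM with GDF10. Both GDF10 libraries were below both vehicle libraries. The log2 fold change was −0.26 with a 95% interval of −0.61 to 0.08, and it ran from −0.15 without vehicle replicate 1 to −0.37 without vehicle replicate 2. The point estimates of the 2 members that act in mitochondria lay on opposite sides of no change, but the interval of Metap1d included no change. Of their summed CPM per kb, Xpnpep3 made up 35.2% and 43.2% with vehicle and 71.7% and 69.9% with GDF10. In the vehicle libraries Metap1d had the higher level per kb of the pair, and in the GDF10 libraries Xpnpep3 did.

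**Figure D4:**
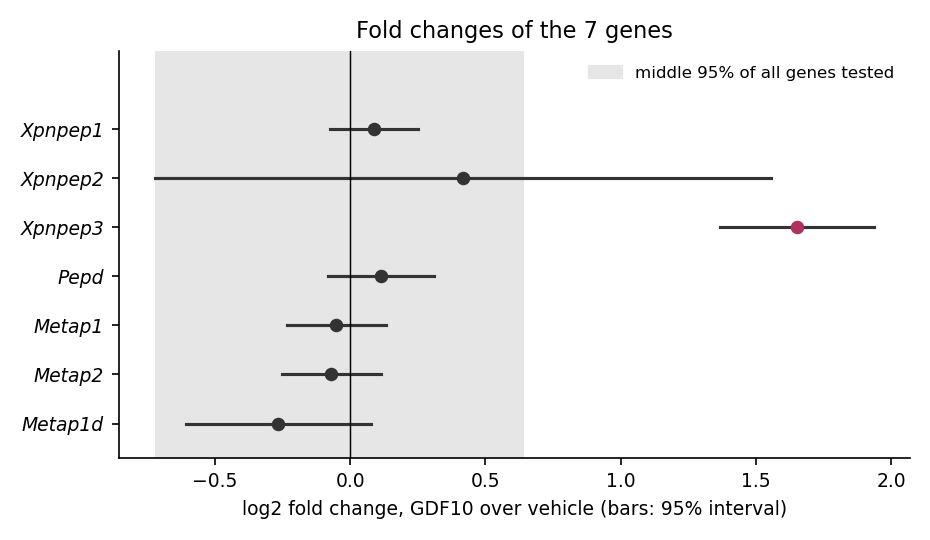
log2 fold change of each gene, GDF10 over vehicle, with its 95% interval from edgeR; the grey band holds the middle 95% of all genes tested, from −0.72 to 0.64. The interval of Xpnpep3, from 1.37 to 1.94, lies outside the band, and the intervals of the other 6 genes include 0.

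Of the 7 members 4 had positive and 3 negative log2 fold changes. In 5 members the groups did not overlap, where this held for 38.2% of all genes tested, and in 1 member the unadjusted p was under 0.05, where this held for 5.94%. The summed CPM of the 6 members other than Xpnpep3 was 537 and 559 with vehicle and 551 and 548 with GDF10. Their groups overlapped, and the ratio of means was 1.003. Of the summed CPM per kb of all 7 members, Xpnpep3 made up 1.91% and 2.21% with vehicle and 6.25% and 6.06% with GDF10.

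Genes that work beside these enzymes were looked at as 6 lists, chosen with earlier results of these data known. Of 80 genes tested over the lists, 0 passed an adjusted p of 0.05 with edgeR in either direction, and DESeq2 also gave 0. At an unadjusted p under 0.05 in edgeR, 1 was higher and 4 lower, or 6.25%, close to the 5.94% of all genes. The medians of the lists with more than 2 genes lay between −0.01 and 0.03 on the log2 scale, beside a median of 0.0029 for all genes tested.

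N-terminal acetyltransferases and myristoyltransferases modify the residue that methionine aminopeptidases expose or leave in place, and 8 of 15 tested had positive fold changes. Naa15, the ribosome anchor of the NatA acetyltransferase, had 122 and 119 CPM with vehicle and 92.0 and 107.6 with GDF10 (log2 fold change −0.27, adjusted p = 0.820, edgeR). Naa50, another acetyltransferase of that complex, had a log2 fold change of −0.18, and Naa38, an auxiliary subunit of NatC, one of 0.13.

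Of 19 tested genes of mitochondrial deformylation, presequence cleavage and protein quality control, 9 had positive fold changes. Yme1l1, a protease of the inner membrane, had 82.2 and 87.0 CPM with vehicle and 72.2 and 71.4 with GDF10 (log2 fold change −0.24, adjusted p = 0.815, edgeR). Immp2l, a subunit of the inner membrane peptidase, was low, at 1.49 to 2.46 CPM, with a log2 fold change of −0.47 and an unadjusted p of 0.111 in edgeR. Htra2, a protease of the intermembrane space, had a log2 fold change of 0.16. None of these passed the test beside Xpnpep3.

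Of 14 other aminopeptidases tested, 8 had positive fold changes. Tpp2, a large cytosolic tripeptidyl peptidase, had 94.2 and 100.4 CPM with vehicle and 78.2 and 82.0 with GDF10 (log2 fold change −0.28, unadjusted p = 0.00965, adjusted p = 0.752, edgeR). Rnpep, aminopeptidase B, had a log2 fold change of 0.20 and Lta4h, leukotriene A4 hydrolase, one of 0.11. Of 13 other proline-specific peptidases and dipeptidases, 9 had positive fold changes. Dpp8, a cytosolic dipeptidyl peptidase, had 106 and 119 CPM with vehicle and 82.0 and 101.8 with GDF10 (log2 fold change −0.29, adjusted p = 0.825, edgeR). Prepl had a log2 fold change of −0.14, and Dpep2, a membrane dipeptidase gene with 21, 2, 24 and 40 counts in vehicle 1, vehicle 2, GDF10 1 and GDF10 2, one of 1.51 (unadjusted p = 0.102, edgeR).

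Of 17 tested genes of proline synthesis, proline breakdown and collagen proline hydroxylation, 10 had positive fold changes. Pycrl, which encodes a reductase of the last step of proline synthesis, had 67.3 and 65.9 CPM with vehicle and 74.9 and 75.6 with GDF10 (log2 fold change 0.17, adjusted p = 0.825, edgeR). Slc38a2, a neutral amino acid transporter gene, stood at 600.0 and 613 CPM with vehicle and 562 and 555 with GDF10 (log2 fold change −0.12). Pa2g4 and Supt16 encode relatives of the methionine and proline aminopeptidases that share the fold and are not known to cut peptides. Pa2g4 had 446 and 427 CPM with vehicle and 413 and 421 with GDF10, and Supt16 had 195 and 190 against 167 and 178 (log2 fold changes −0.07 and −0.16, adjusted p = 0.877 and 0.825, edgeR).

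**Figure D5:**
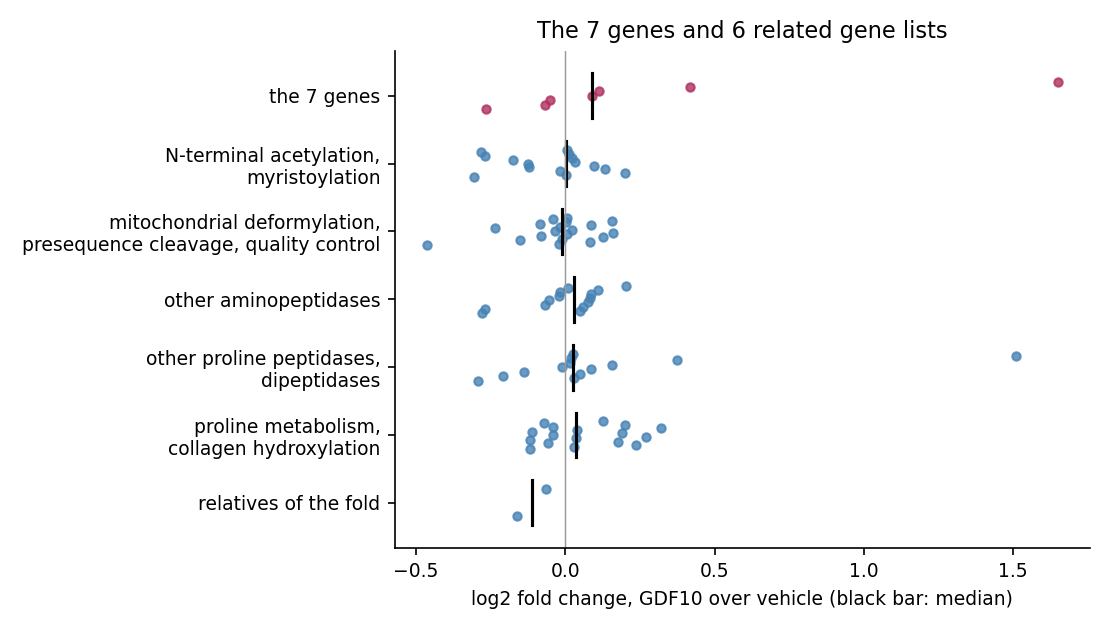
log2 fold change, GDF10 over vehicle, of each of the 7 genes and of the tested genes in 6 related lists, 1 point per gene, with black bars at the medians. The points at the right are Xpnpep3 at 1.65 and Dpep2 at 1.51, the latter with 2 to 40 counts per library.

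The genes with profiles most like that of Xpnpep3 were sought by Euclidean distance between log2 CPM deviations from each gene's mean over the 4 libraries, among 10980 other tested genes whose mean log2 CPM reached 1 and whose symbol is no predicted or clone name. The nearest were Ube2v1 (distance 0.51), Zfp54 (0.53), Tmem170b (0.56), Ddr2 (0.62) and Synpo2 (0.66). Ube2v1, a ubiquitin-conjugating enzyme variant gene, had 29.5 and 26.2 CPM with vehicle and 119.9 and 111.5 with GDF10. These are counts assigned to the Ube2v1 gene model. Whether it shares reads with Gm20431, a gene with a log2 fold change of −14.63, was not tested. Zfp54, a zinc finger gene at a far lower level, had 1.82 and 2.20 CPM with vehicle and 4.44 and 4.39 with GDF10. Ddr2, a collagen receptor gene, had 87.0 and 95.7 CPM with vehicle and 175 and 228 with GDF10. The search itself picks genes that are higher with GDF10, so their direction is no result. Zfp54 (adjusted p = 0.260, edgeR) and Ddr2 (adjusted p = 0.1097, edgeR) did not pass the test.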

How the data were processed

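RNA-seq counts of 4 C2C12 libraries were used. HISAT2 2.0, StringTie 1.3.3b, bedtools 2.26.0, DESeq2 1.12.4, Trimmomatic 0.36, FastQC 0.11.2 and the build mm10 are named in the submitters' processing notes, with no role or order. Which program counted, on which annotation, and whether it used strand is not given in the sources used here. The deposited values are raw whole-number counts per Ensembl gene, which the authors made from their reads. Columns named Con were taken as vehicle, since the other 2 carry the name GDF10. Symbols, positions and exon lengths came from GENCODE M21, which held 51633 of the identifiers.

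Counts were filtered with filterByExpr, scaled by TMM and fitted with robust glmQLFit and glmQLFTest (edgeR 4.0.16, R 4.3.3) across 15467 genes, without covariates, and p-values were adjusted by Benjamini-Hochberg over all of them. CPM use TMM-scaled library sizes. A standard error is the log2 fold change over the root of F, and 95% intervals use the moderated degrees of freedom. The test was first tested on simulated data. Members and lists were chosen with earlier results of these data known. Named genes are the members, the 3 genes of lowest p per list, relatives of the fold, flanking and overlapping genes, and the 5 nearest profiles; 1 gene that this rule names is not reported here. Matches to other genes were sought with BLAST against GENCODE transcripts. No protein sequences were used here, so coding length was taken from GENCODE.

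The alternatives were other scalings, filters and thresholds, DESeq2 1.42.0, limma-voom (limma 3.58.1), non-robust dispersions, a replicate block, each library left out, counts summed over genes that share exon bases, and log2 CPM with the exon length or GC trend removed (loess, span 0.3, prior count 2; GC of transcripts) and fitted with limma.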

Additional observations from a re-analysis of the deposited data

How the results depend on the processing

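Xpnpep3 stayed higher with GDF10 in all 16 refits. Its log2 fold changes ran from 1.53 (without vehicle replicate 1) to 1.78 (without vehicle replicate 2). In the refits that kept all 4 libraries, its adjusted p-values ran from 1.1e-22 with DESeq2 to 0.0419 with limma-voom. The non-robust edgeR fit gave 0.0398. The refits reuse the libraries on which the family was chosen, so they describe the settings and are no support of their own. The other 6 members passed in none of their refits, and the filter of at least 1 CPM in 2 libraries left out Xpnpep2. Metap1 and Metap2 changed sign in 2 refits each, within −0.09 to 0.02 for Metap1 (the exon length and GC trends removed) and −0.14 to 0.01 for Metap2 (without vehicle replicate 2, and the exon length trend removed). Xpnpep1 had 0.18 with the exon length trend removed. The number of genes called over the whole table was 25, and it was 9 with non-robust dispersions, 11 with limma-voom, 65 with DESeq2 and 13 with counts summed over genes sharing exon bases; leaving out a library gave 27 (vehicle replicate 1), 44 (vehicle replicate 2), 112 (GDF10 replicate 1) and 224 (GDF10 replicate 2). The causes were not tested. The lists held 0 called genes in every refit except that without GDF10 replicate 2, with 1 (Naa60, named after its value was seen); the range over left-out libraries was 0 to 1. A library left out leaves 1 sample in its group, assumed to vary like the other. With the replicate block 23 genes passed, and Xpnpep3 had 1.65 (adjusted p = 0.00956, edgeR). Deviations of libraries with the same number correlated at 0.07 across genes, so the numbers were not taken to pair samples. The levels per kb moved by less than 1 SD under 21 of 21 other scalings and by more in 7 of 7 with coding length. With 2 libraries a group, a difference of the size estimated for Metap1d could not be told from none.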

Other observations

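The genes that flank the other members were measured too. Cebpg, a bZIP transcription factor gene 1713 bases from Pepd, had 47.0 and 52.6 CPM with vehicle and 47.9 and 57.9 with GDF10 (log2 fold change 0.09, adjusted p = 0.904, edgeR). Adh5, the formaldehyde-clearing alcohol dehydrogenase gene beside Metap1, had a log2 fold change of 0.04, and Eif4e, the cap-binding translation factor gene on its other side, one of −0.09. Usp44, a deubiquitinase gene 400 bases from Metap2, was low, at 1.15 and 1.45 CPM with vehicle and 1.84 and 1.61 with GDF10. The 95% interval of its log2 fold change, 0.41, ran from −0.27 to 1.08 (adjusted p = 0.845, edgeR). The groups of Usp44 did not overlap, with 41 to 56 counts per library. This also held for Add3, St13 and Rbx1, and for 38.2% of all genes tested. Vezt on the other side of Metap2 had a log2 fold change of 0.01. Hat1, a histone acetyltransferase gene beside Metap1d, had a log2 fold change of −0.10, and Dlx1, a homeobox gene on its other side, one of −0.18. Apln, the apelin gene beside Xpnpep2, stood at 37.5 and 48.3 CPM with vehicle and 35.7 and 38.5 with GDF10 (log2 fold change −0.21, adjusted p = 0.845, edgeR), far above the 0.405 to 1.004 CPM of Xpnpep2 itself, and Add3 beside Xpnpep1 had a log2 fold change of 0.06. None of these flanking genes passed the test.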
